A study of Solanum lycopersicum with 10 samples.

Results

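In tomato leaf primordia, 77 of 35767 loci were strongly lowered after 3 h of a synthetic auxin while their change in auxin-treated root tips stayed small. The loci were chosen by measured values, so the values that chose them are given as a description. Where calls of a test on those same contrasts are printed, they too are only a description. The change of a locus was the mean of log2(normalized count + 1) in the auxin libraries minus that in the mock libraries. A locus was chosen where the leaf change was -1.5 or less, every auxin leaf library lay below every mock leaf library, the mock leaf mean was at least 20 normalized counts and the root change lay between -0.7 and 0.7. Of the 10784 loci with a mock leaf mean of at least 20, these 77 made up 0.714%.

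The series holds 10 libraries of Solanum lycopersicum line M82 from 2 experiments, each with mock controls. Leaf groups were mock (n = 3) and picloram, an auxin analog sprayed at 1 µM for 3 h (n = 3). The plants had grown for 3 weeks in a greenhouse, and 15 primordia of leaf 5 at the P5 stage were collected. Root groups were mock (n = 2) and 2,4-D, another auxin analog, at 1 µM for 3 h (n = 2), given to plate-grown seedlings 4 days after germination. The last 1 cm of each root tip was cut for RNA. Compound, route, plant age and growth conditions therefore differed together with tissue. The labels do not say whether the libraries of a group came from separate plants or cultures, so p-values measure only the spread between these libraries. In such bulk tissue, fewer cells of a type and less RNA per cell cannot be told apart.

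Auxin is perceived by a nuclear receptor that marks Aux/IAA repressor proteins for destruction, which frees auxin response factors to act on their target genes. Many targets are switched on within minutes to hours, and other transcripts decline in the same period. In tomato leaf primordia, auxin maxima mark where leaflets and blade grow out, and in root tips auxin sets the position of the stem cell niche and the elongation zone. The table carries Solyc identifiers without gene names, and 0 of 41476 rows of RefSeq's gene table for assembly SLM_r2.1 name such an identifier. The loci are therefore described by identifier, and no gene role is given to them except where a short list recalled from the literature holds one.

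The label of these loci, lowered strongly in leaf only, was set against their root levels first. Over the 4 root libraries, 38 of the 77 loci had a mean of at least 10 normalized counts, 20 lay from 1 to under 10, and 19 were under 1. In the last class 11 loci stood at 0 in all 4 root libraries, where the root change is 0 by construction. A root mean under 1 leaves little room on this scale for a fall as large as that in leaf. In the class between, root means ran from 1.17 to 9.12, so that the root change rests on few normalized counts. The words "in leaf only" are best carried by the 38 loci with a root mean of at least 10. Root libraries numbered 1, taken alone, gave 38, 18 and 21 loci in these classes.

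**Figure D1:**
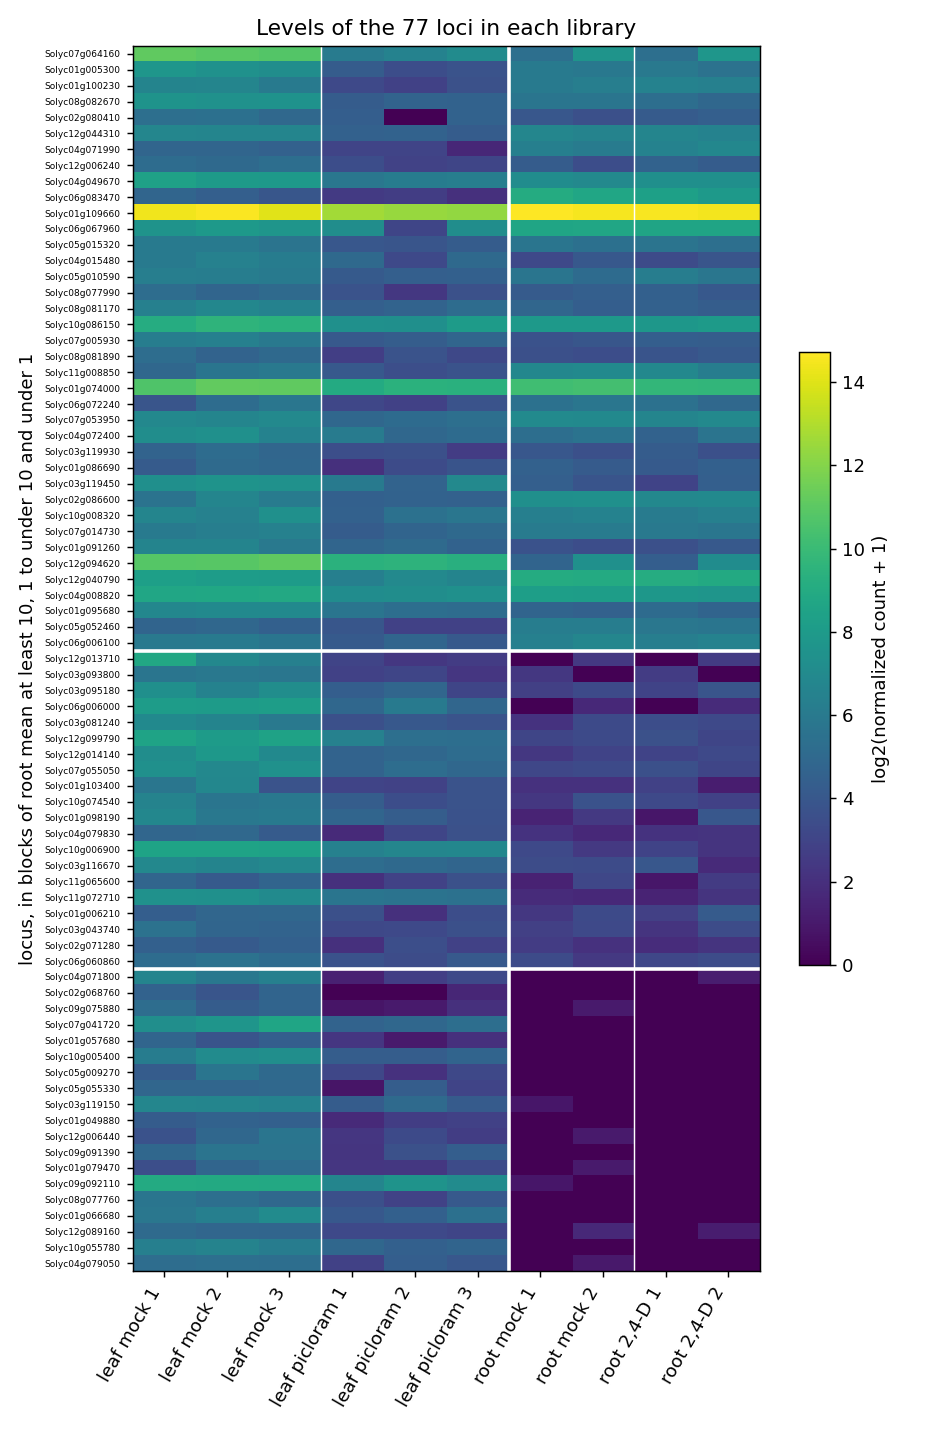
Each row is 1 of the 77 loci and each column 1 library, and colour gives log2(normalized count + 1). White lines part leaf from root libraries, mock from auxin libraries, and the blocks of 38, 20 and 19 loci with a root mean of at least 10, 1 to under 10 and under 1. Within each block loci run from the lowest leaf change downwards, and most of the lowest block is dark in all root libraries.

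The scarcity of root transcript is a property the choice did not use directly. Only 409 of the 10784 loci with a mock leaf mean of at least 20 had a root mean under 1, or 3.79%, against 24.7% of the 77. A root mean of at least 10 was found for 86.3% of those loci and for 49.4% of the 77. Among all 119 loci that met the leaf conditions, whatever their root change, 23.5% were under 1 and 50.4% reached 10. The leaf conditions favour loci that are high in mock leaf, so nothing is read from the size of these differences.

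Levels in mock root were then compared with those in mock leaf, by limma on log2(normalized count + 1) with Benjamini-Hochberg adjustment over 15761 loci and a call at an adjusted p under 0.05. This comparison shares the mock leaf libraries, and their minimum of 20, with the choice of the loci. Of the 77 loci, 58 were called lower in mock root, 7 higher and 12 neither. Over all loci tested 29.8% were called lower in mock root. Over the 10774 tested loci with a mock leaf mean of at least 20 the share was 33.4%, and 32.4% were called higher. The choice favours loci that are high in mock leaf, so nothing is read from the size of this excess. The median of mock root minus mock leaf was -2.60 on the log2 scale for the 77 and 0.00 for those 10774 loci. With equal library totals, 64 of the 77 were called lower.

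**Figure D2:**
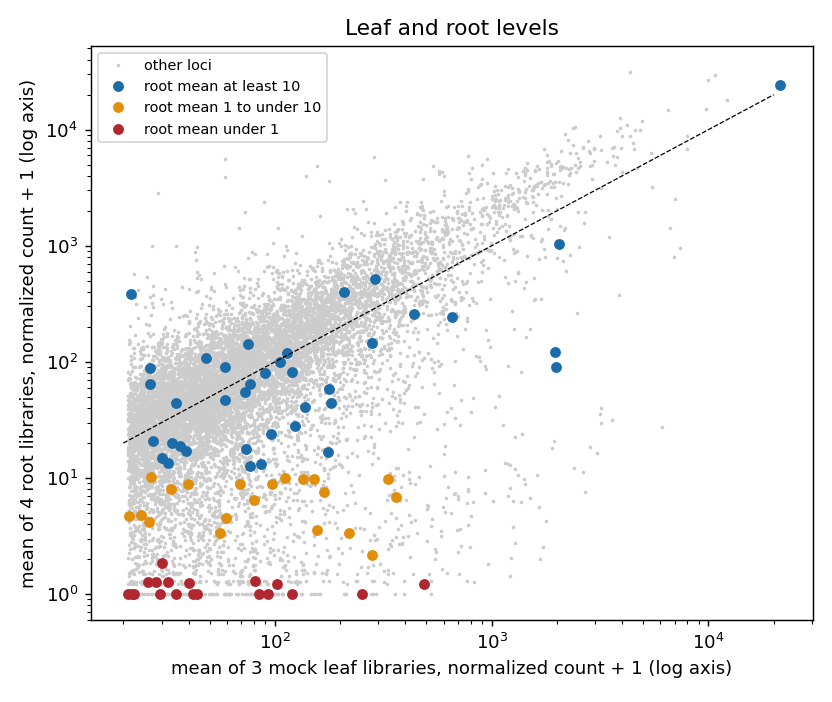
The mean of the 3 mock leaf libraries is plotted against the mean of the 4 root libraries, both as normalized count + 1 on log axes, for loci with a mock leaf mean of at least 20. Grey points are the other loci, coloured points the 77 in 3 classes of root mean, and the dashed line marks equal levels. The 77 spread from the floor of the root axis to above the line, with 39 of them under a root mean of 10.

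Among the loci with scarce root transcript, Solyc09g092110 had the highest mock leaf level. It stood at 502, 497 and 465 normalized counts in mock leaf, at 104, 184 and 137 with picloram, and in root at 0.852 in mock library 1 and 0 in the other 3. Leaf transcript was thus plentiful in both leaf groups, which did not overlap, while root had next to none. Solyc07g041720 read 151, 202 and 400 in mock leaf and 24.2, 29.0 and 39.1 with picloram, with 0 in every root library. The mock libraries spread widely, but the lowest of them stood well above the highest picloram library.

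Of the 6 loci with the lowest leaf change, 4 had a root mean under 10. Solyc12g013710 had the lowest leaf change, -4.69 ± 0.80 (SE), from 451, 118 and 84.2 in mock leaf to 7.06, 4.27 and 5.22 with picloram. Mock library 1 lay far above the other mock libraries, yet all 3 were over 10 times any picloram value. In root it read 0 and 4.48 under mock and 0 and 4.88 on 2,4-D. Solyc04g071800 went from 98.7, 58.7 and 83.7 to 1.58, 5.52 and 8.32, a change of -3.88 ± 0.50 (SE), and reached only 1.22 in 1 root library. Solyc02g068760 went from 23.4, 13.5 and 25.6 to 0, 0 and 2.04 and was at 0 throughout root. Solyc09g075880, at 38.0, 18.2 and 25.3 in mock leaf, fell to 0.785, 1.05 and 3.09. For the last pair the mock levels were close to the minimum of 20, and the fold rests on a few normalized counts in the picloram libraries.

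Over all 77 loci the leaf change ran from -4.69 to -1.503 with a median of -1.82. It was -2 or less in 30 loci, -3 or less in 8 and -4 or less in 2. On the linear scale the picloram mean was 2.53% to 48.5% of the mock mean, with a median of 27.8%. Mock leaf means ran from 20.1 to 21308 with a median of 75.7. They were under 50 in 29 loci and at least 100 in 30, and 28 loci ended under 10 with picloram. The median change over the loci with a mock leaf mean of at least 20 was -0.05. By limma, 68 of the 77 were called lower in leaf, against 5.26% of the 14410 loci tested. The choice used this contrast, so nothing is read from that count. With leaf fitted alone 74 were called.

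**Figure D3:**
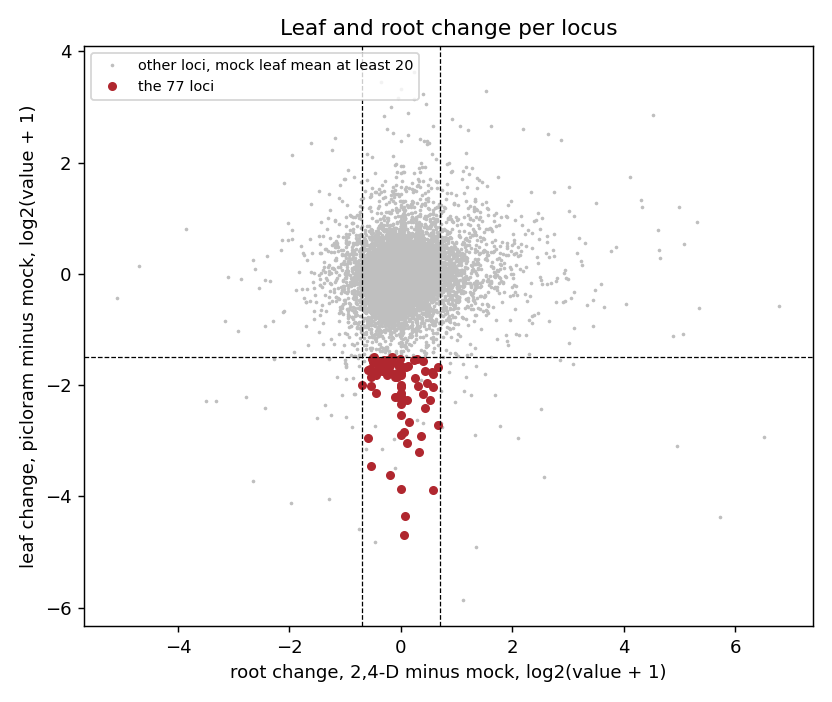
Root change (2,4-D minus mock) on the horizontal axis is plotted against leaf change (picloram minus mock) on the vertical axis, both on the log2(normalized count + 1) scale, for loci with a mock leaf mean of at least 20. Dashed lines mark the limits of -1.5 in leaf and of -0.7 and 0.7 in root, and red points are the 77 loci. Grey points below the leaf limit failed the root limits or had overlapping leaf groups.

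The limits cut through a continuous spread. Just inside the leaf limit were Solyc05g052460 and Solyc06g006100, at -1.504 and -1.503, and just outside were Solyc02g083620 at -1.498 and Solyc12g089240 at -1.48. The largest root changes kept were 0.67 for Solyc03g081240 and -0.69 for Solyc06g083470, and the nearest left out was 0.72. The lowest mock leaf mean kept was 20.1, and the highest left out was 18.999. Of the 119 loci that met the leaf conditions, 19 had a root change below -0.7 and 23 above 0.7. By root mean, 28 of the 119 were under 1, 31 from 1 to under 10 and 60 at least 10. Of these, 19, 20 and 38 were kept. Some of the loci left out thus also had few normalized counts in root.

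The 38 loci with a root mean of at least 10 are those that limma tested for a root response. Among them Solyc01g005300, an entry of the list of evening-phased clock loci, had the lowest leaf change after Solyc07g064160. It read 213, 171 and 147 normalized counts in mock leaf, and 18.6, 10.2 and 12.5 with picloram, so 7.78% of the mock mean was left. In root it read 63.4 and 59.3 under mock and 61.7 and 46.0 on 2,4-D. The root groups overlapped, and the leaf groups were far apart, with changes of -0.20 ± 0.29 in root and -3.61 ± 0.24 in leaf (SE).

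Solyc01g100230 behaved in the same manner at similar root and leaf levels. Mock leaf stood at 98.0, 102 and 67.1, picloram leaf at 8.68, 6.32 and 11.4, mock root at 62.8 and 76.5, and 2,4-D root at 90.1 and 84.7. Both 2,4-D values lay above both mock values in root, the opposite order to leaf, with a root change of 0.33 ± 0.30 (SE). Solyc12g044310 was the most even of these loci. It read 106, 104 and 103 in mock leaf, 22.8, 23.9 and 18.5 with picloram, 106 and 93.5 in mock root, and 103 and 90.2 on 2,4-D. Mock leaf, mock root and 2,4-D root were thus at a like level, and only the picloram libraries stood lower.

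**Figure D4:**
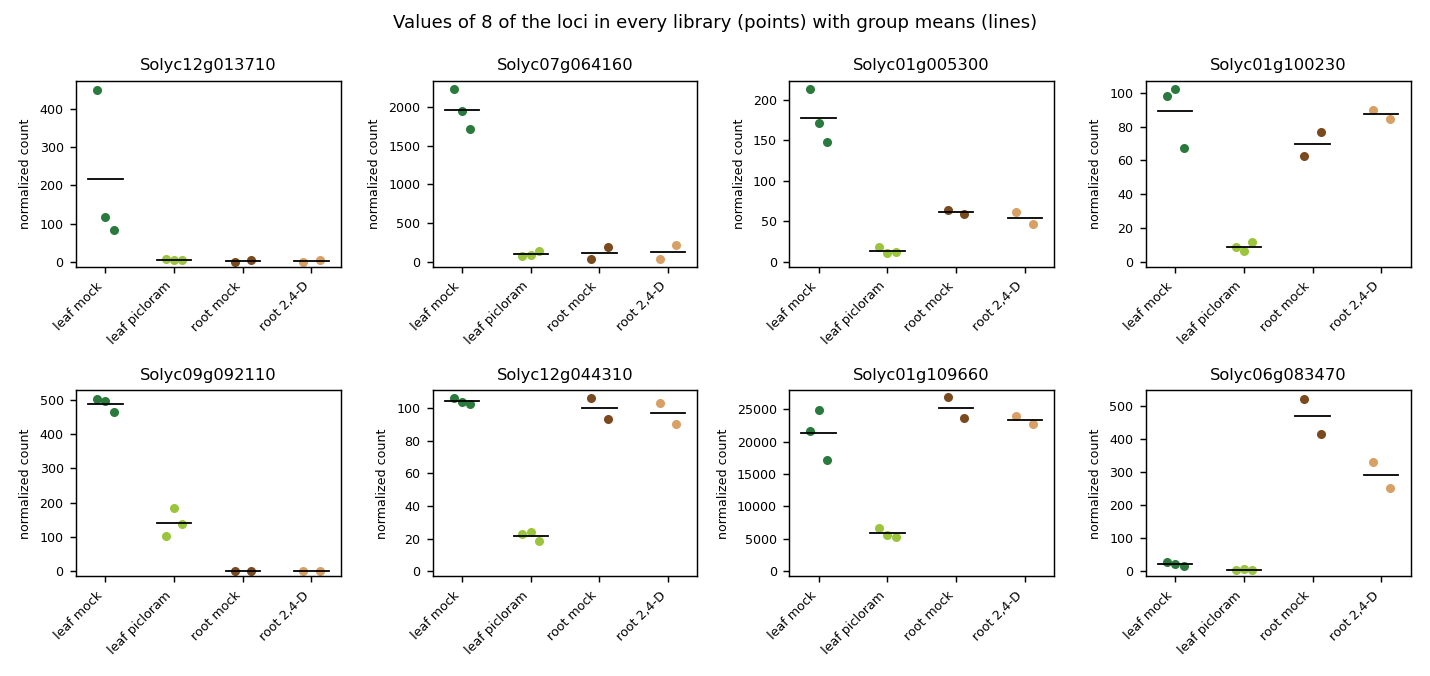
Normalized counts of 8 of the loci are shown for every library as points, with the group mean as a line, in leaf mock (n = 3), leaf picloram (n = 3), root mock (n = 2) and root 2,4-D (n = 2). Each panel has its own axis from 0. In Solyc01g005300, Solyc01g100230 and Solyc12g044310 the picloram libraries are the lowest, in Solyc09g092110 the root libraries are near 0, and in Solyc06g083470 the root libraries are far above the leaf libraries.

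The most abundant of the loci was Solyc01g109660. It read 21713, 24996 and 17215 in mock leaf and 6609, 5612 and 5229 with picloram, a change of -1.86 ± 0.15 (SE). Root libraries were at 26866 and 23651 under mock and 24012 and 22811 on 2,4-D, where the groups overlapped. It supplied most of the signal of the set. The 77 loci together took 1.62% to 1.90% of each mock leaf library and 0.478% to 0.521% of each picloram library. Without Solyc01g109660 these shares were 0.689% to 0.729% and 0.169% to 0.203%. In root the 77 loci took 1.01% to 1.08% under mock and 0.956% to 0.963% on 2,4-D, or 0.168% to 0.183% and 0.145% to 0.156% without that locus.

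Solyc01g074000, the next by root level, read 1596, 2281 and 2243 in mock leaf and 503, 686 and 653 with picloram. In root it stood at 1183 and 1299 under mock and at 846 and 809 on 2,4-D. Both tissues moved down without overlap, by -1.72 ± 0.15 in leaf and -0.58 ± 0.19 in root (SE), so that this locus was lower in both tissues. Solyc10g086150 kept a flat root, at 239 and 246 under mock and 219 and 263 on 2,4-D. Its leaf values went from 543, 765 and 662 to 166, 157 and 268. Solyc12g040790 was at 540 and 502 in mock root and 552 and 483 on 2,4-D, and in leaf it went from 316, 276 and 273 to 80.6, 121 and 100.

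In 11 loci the mock root mean was above the mock leaf mean, and limma called 7 of these higher in mock root. The widest gap was in Solyc06g083470, at 26.4, 21.2 and 14.2 in mock leaf and 522 and 417 in mock root, a difference of 4.48 ± 0.29 (SE). This locus was lowered in leaf to 4.70, 5.27 and 3.05, and on 2,4-D it read 331 and 252, below both mock root values. Its root change of -0.69 is the one nearest the limit. Solyc12g040790 was also higher in mock root, by 0.85 ± 0.16 (SE).

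The interval around the root change was of very unequal width among the 38 loci. Limma took 1 spread per locus over all 10 libraries, so a wide root interval can come from the leaf libraries. The 95% interval of the root change from limma had a half-width of 0.30 to 2.48 on the log2 scale, with a median of 0.69. In 15 loci the interval reached down to -1, and in 3 it reached the locus's own leaf change: Solyc06g067960, Solyc03g119450 and Solyc12g094620. The root values of Solyc06g067960 were close, at 394 and 423 under mock and 390 and 385 on 2,4-D. Its picloram leaf libraries were far apart, at 147, 7.59 and 149. None of the 38 was called in root by limma, against 4.55% of the 12664 loci tested. The choice limited the root change, so this count too is only a description. An unadjusted limma p under 0.05 was seen in 3 loci, Solyc08g082670, Solyc01g074000 and Solyc04g008820, all lower on 2,4-D. Solyc08g082670 read 52.0 and 51.0 in mock root and 39.2 and 29.6 on 2,4-D. With root fitted alone Solyc01g074000, Solyc06g083470 and Solyc04g008820 were called lower on 2,4-D, and Solyc01g074000 also with the replicate number as a block or without mock leaf library 1.

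In 2 of the 38 loci with a root mean of at least 10, the root libraries divided by their number rather than by treatment. Solyc07g064160 had the second lowest leaf change, -4.34 ± 0.58 (SE), from 2230, 1946 and 1719 in mock leaf to 69.9, 91.4 and 135 with picloram. Its root values were 40.2 and 195 under mock and 41.1 and 211 on 2,4-D, so both libraries numbered 2 were high and both numbered 1 low. This division of the root libraries also enters the SE of its leaf change. Solyc12g094620, at 1842, 1890 and 2184 in mock leaf and 664, 729 and 632 with picloram, read 26.0 and 168 in mock root and 20.3 and 140 on 2,4-D. When any 1 root library was left out, both loci fell outside the root limits.

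Loci with both root libraries numbered 2 more than 4 times above both same-treatment libraries numbered 1, on the log2(normalized count + 1) scale, were rare: 13 of 12361 with a root mean of at least 10, among them Solyc07g064160 and Solyc12g094620. The same root libraries held more signal from a photosynthesis list, made of light-harvesting and Rubisco small-subunit entries. Summed over 19 of its 20 loci, that list stood at 25.1 and 23.8 in mock and 2,4-D libraries numbered 1 and at 122 and 153 in those numbered 2. In root 5 to 12 of the 20 loci were at 0, and in leaf 0 of 20. The sum also moved with the 77 loci in leaf, from 19475 to 21236 in the mock libraries down to 11016 to 13956 in the picloram libraries. All 20 listed loci had a leaf change below 0, with a median of -0.92. By limma, 5 of the 20 were called lower, against 5.26% of all loci tested in leaf. The part of this list's change in the leaf fall of the 77 loci was not tested. The remaining entry, Solyc12g011450, was 1 of the 5 called lower in leaf, with a change of -0.32. It stood at 959 to 1259 in root and so did not set leaf apart. The part of leaf-type transcript in the root values of Solyc07g064160 and Solyc12g094620 was not tested.

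**Figure D5:**
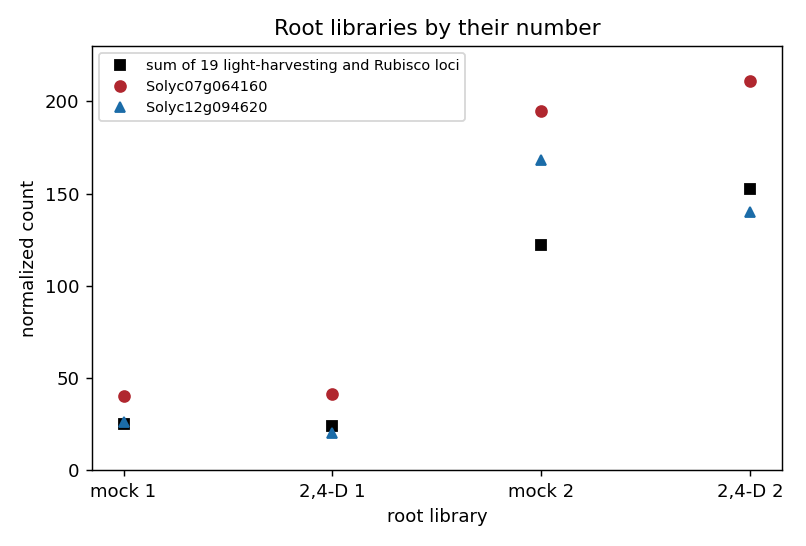
Normalized counts in the 4 root libraries, ordered by library number, for Solyc07g064160 (circles), Solyc12g094620 (triangles) and the sum of 19 photosynthesis loci (squares). All 3 measures are under 50 in both libraries numbered 1 and over 100 in both numbered 2, whatever the treatment.

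Single libraries also shaped some leaf values. Solyc06g067960 read 189, 237 and 199 in mock leaf and 147, 7.59 and 149 with picloram, so its leaf change of -1.86 came from picloram library 2. Without that library it no longer met the rule. Solyc02g080410 showed the same pattern, with 19.7, 0 and 23.6 under picloram against 40.0, 42.5 and 30.9. In Solyc04g015480 picloram library 2 was again the low one, at 8.42 beside 31.8 and 31.9. In Solyc05g055330 picloram library 1 was low, at 0.794 beside 19.02 and 7.25, and in Solyc01g103400 mock library 3, at 12.5, nearly met the highest picloram value. Apart from Solyc04g015480, these loci were among the 9 that limma did not call in leaf. With leaf fitted alone, Solyc06g067960, Solyc02g080410 and Solyc05g055330 stayed uncalled. Solyc12g094620 was also among the 9, but no single leaf library stood apart in it. Its adjusted p from limma was 0.166 over all 10 libraries, which include its divided root values, and 1.4e-05 with leaf fitted alone.

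The rule was reapplied with each of the 10 libraries left out in turn. Of the 77 loci, 24 were chosen every time, 18 were lost in 1 omission and 35 in 2 or more. Omission of a leaf library removed 34 loci at least once, and omission of a root library 30. The 11 loci at 0 in every root library could not be lost by omission of a root library. Of the 38 loci with a root mean of at least 10, 13 were chosen every time. Among the 24 were Solyc01g005300, Solyc01g100230, Solyc12g044310, Solyc01g109660, Solyc10g086150 and, from the loci at 0 in root, Solyc07g041720.

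The leaf fall was also read in libraries that had no part in the choice. The rule was applied without the leaf libraries of 1 number, and picloram was compared with mock in the pair left out. The numbers were not taken to pair leaf libraries, so each pair is 1 library against another. With libraries numbered 3 left out, 96 loci were chosen, and 88 of them were lower in the left-out picloram library, with a median change of -1.42. Of the 96, 68 belonged to the 77 loci. Their median in the libraries that chose them was -1.97. With libraries numbered 1 left out, 92 of 100 were lower, with a median of -1.27, and 60 of the 100 belonged to the 77. With those numbered 2 left out, 81 of 84 were lower, with a median of -1.61, and 61 of the 84 belonged to the 77. Over all loci with the same mock minimum, 53.1% to 54.3% were lower and the medians were -0.05 to -0.04. A change of -1.5 or less was seen again in 45% to 61.9% of the chosen loci and in 1.48% to 1.72% of all. The size of the fall was thus smaller in the left-out libraries, while its direction held in most loci.

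Lists of auxin and clock genes, recalled from the literature and not checked gene by gene, were searched for the 77 loci. None came from 21 Aux/IAA, 10 GH3, 18 ARF or 14 auxin transport loci in the table, nor from the 20 light-harvesting and Rubisco loci. Of these, 12, 6, 14, 9 and 20 had a mock leaf mean of at least 20. The 77 made up 0.714% of such loci, so lists this short cannot show an absence. Solyc02g070950 of the light-harvesting list met the leaf conditions, with a change of -1.65. It was left out by a root change of 1.34, which rests on root means of 0 under mock and 1.67 on 2,4-D. Of 11 loci listed as evening-phased, a term for clock transcripts that peak late in the day, 3 were among the 77. Of these 11, 6 had a mock leaf mean of at least 20, where the share of the 77 is 0.714%. The lists were chosen with earlier results of these data known, so nothing is read from this overlap. Solyc01g005300 is described above. Solyc03g081240 fell from 126, 100 and 60.4 to 11.1, 15.9 and 12.5 in leaf and read 3.37, 8.94, 10.3 and 8.65 in root. Solyc04g071990 fell from 27.2, 26.6 and 22.5 to 7.07, 7.23 and 2.06, and was higher in root, at 82.1 and 69.2 under mock and 89.9 and 110 on 2,4-D. A further listed locus, Solyc12g056650, met the leaf conditions with a change of -1.77 but had a root change of 0.87, outside the limit. The leaf changes of the other 7 listed loci ran from -0.78 to 0.82. By limma, 4 of 8 tested loci of the list were called lower in leaf and 0 higher, against 5.26% called lower over all loci tested. These 4 are the loci that met the leaf conditions, so nothing is read from that count. The single morning-phased locus of the lists, Solyc10g005080, moved the other way in leaf, by 3.06.

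By the chromosome in the identifier, the loci lay on all 12 chromosomes, with 14 on chromosome 1 and 9 on chromosome 12. Chromosome 1 held 18.2% of the 77 and 13.3% of the loci with a mock leaf mean of at least 20. Chromosome 12 held 11.7% and 6.42%, and chromosome 2 held 5.19% and 10.1%. No pair of the 77 lay within 10 loci of each other in the order of identifiers, and none had the same values as another locus in every library.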

How the data were processed

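Libraries were made with a 3' end sequencing kit, per the labels' protocols, from root tips (n = 2 per group) and leaf primordia (n = 3 per group). The deposited values are a signal that is never negative, normalized counts per gene by the authors. The submitters' processing notes list Salmon 0.8.2 and DESeq2 with no step for either, and genome build and annotation were not given in the sources used here. Totals per library were 1.83 to 2.06 M in leaf and 2.83 to 2.96 M in root. Low values were whole multiples of a step, within 0.1, in 58.7% to 88.5% of cases per library (reach of 20 steps), so read counts were not recovered and no count test was run. Calls came from limma 3.58.1 (R 4.3.3), with a mean-variance trend, on log2(value + 1), 1 mean per group over all 10 libraries and Benjamini-Hochberg adjustment over loci with at least 10 in at least 2 libraries of the tissue (of either tissue for mock root against mock leaf). Each locus had 1 spread for all groups, so the SE of a leaf change holds root spread too, and the reverse. Fold changes on this scale understate the change of low loci. The fit was tested only on simulated negative binomial counts with the same dispersion for every locus. That setting is simpler than these data, so nothing is read from it here. The loci and the gene lists were chosen with earlier results of these data known. Named were the 6 loci of lowest leaf change, the 6 of highest mock leaf mean, the 4 of highest root mean, those nearest the leaf limit and those on a list. All others named were chosen after their values were seen.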

Additional observations from a re-analysis of the deposited data

How the results depend on the processing

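The 77 loci became 71 and 60 with pseudocounts of 0.5 and 5 (68 and 49 shared with the 77), 68 with equal library totals, 79 with recomputed median ratios and 96 after quantile normalization. They were 48 with a mock leaf minimum of 50 and 38 with a root mean of at least 10, which follow from fewer loci being eligible, and 67 to 100 with 1 library left out. Loci called lower in leaf numbered 758 (453 to 877 with 1 library left out, 727 with the replicate block). Loci called in root numbered 576, 380 after quantile normalization, 1141 with root fitted alone, 519 with the replicate block and 90 to 669 with 1 library left out. The replicate block left 58 of the 77 called lower in mock root, as without it, and 55 to 59 were called with 1 library left out. Same-numbered leaf libraries correlated by -0.02 to 0.09 across loci in their deviations from group means, so leaf numbers were not taken to pair libraries. Same-numbered root libraries correlated by 0.16 and differently numbered ones by -0.16, values that are equal in size by construction in groups of 2. Whether root numbers pair libraries was not tested, and the main fit did not pair them. The held-out median was -1.61 for libraries numbered 2 and -1.42 for those numbered 3, and the cause was not tested.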
